A study of Homo sapiens with 3 samples.

Results

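The comparison described here sets U2OS cells that carry wild-type Set8b beside U2OS cells that carry an empty vector. It rests on 2 of the 3 arrays of the series, 1 array per group, chosen by their titles alone. U2OS is an established human osteosarcoma line, a bone tumour line of mesenchymal kind. Both cultures were transduced with pMSCV retroviruses and harvested 5 days later, so the vector cells share the infection with the Set8b cells. The array labelled Wt-Set8b holds RNA of cells given a retrovirus for wild-type Set8b, the form that the cell can degrade, and the array labelled pMSCV-vector holds RNA of cells given a virus with no insert. The third array, of cells given Set8b_deltaPIP2, a form of the enzyme that resists degradation, entered the normalization, and its values are given beside the others. The sources used here do not say whether transduced cells were selected, or which share of them took up virus. RNA was read from whole cultures, so a change in some cells and a smaller change in all of them cannot be told apart.

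Set8, encoded by KMT5A, places the first methyl group on lysine 20 of histone H4, a mark tied to chromosome compaction and to the timing of replication origins. In S phase and after DNA damage the protein is bound by PCNA on chromatin and handed to CRL4-Cdt2, a ubiquitin ligase that destroys it. The same ligase removes the licensing factor CDT1 and the cell cycle inhibitor p21. A wild-type transgene therefore makes a protein that remains subject to this turnover.

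Expression was read as signal, the brightness of a probe set, which is a group of probes on the array for one transcript. The arrays held 54675 probe sets, of which 62 were controls, and 41091 of the rest had 1 gene symbol. The brightest 25% of these by mean log2 signal over the 3 arrays were kept, 10273 probe sets with a mean signal of at least 279, and each of 7327 genes was read by the brightest of its own. At the edge of this filter, probe sets of USP31 and ZNF595 lay just inside, with log2 differences between wild-type Set8b and vector of -0.17 and -0.36. Probe sets of TMEM115 and LRRC8E lay just outside, at 0.22 and -0.10. Because each group is 1 array, differences could not be set against replicates and were not tested. Several probe sets of a gene gave the sole measure of error, an SD of 0.23 log2 over 2148 genes, and it says nothing of how cultures vary.

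Before any gene is compared, both arrays were set against their controls. The median deposited intensity was 42.8 with wild-type Set8b and 38.6 with vector. Spike-ins added at hybridisation had a median ratio of 1.01 for wild-type Set8b over vector across 18 probe sets. Poly-A spike-ins, which are added to the RNA before labelling, had a median ratio of 0.441 across 24 probe sets. The vector array was thus brighter in them. For stable Set8b over vector the ratios were 0.796 for hybridisation and 0.467 for poly-A spike-ins. For stable over wild-type Set8b they were 0.784 and 1.06. The part of these gaps in the gene differences was not tested. The ratio of 3′ to 5′ signal, which rises as RNA degrades, was 1.03 with vector and 1.12 with wild-type Set8b for GAPDH, and 7.995 and 7.56 for ACTB. Many markers of the line's lineage were bright on both arrays. Among them were COL1A1 at 10740 with vector and 8855 with wild-type Set8b, VIM at 12786 and 11123, and RUNX2 at 831 and 894. The later bone markers SP7 and ALPL were dim, with ALPL at 37.7 with vector and 46.2 with wild-type Set8b. Also below the filter were COL1A2 at 17.4 and 19.6 and COL6A2 at 227 and 208, in the same order. Of 25 such markers measured, 16 passed the filter, and the summed signal of all 25 was 45409 with vector and 43621 with wild-type Set8b. No marker passed the filter among 14 of leukocytes, 9 of endothelium and 3 of red cells. The summed leukocyte signal was 478 with vector and 579 with wild-type Set8b, and PTPRC, which defines those cells, read 33.0 and 11.3. Of 13 epithelial and 10 neural markers, 4 and 2 passed, led by KRT18 and TUBB3. Summed epithelial signal was 9577 with vector and 10530.0 with wild-type Set8b, neural 12925 and 12374, endothelial 322 and 456, and red cell 129 and 187.

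KMT5A, the transduced gene, was read by 4 probe sets, and all were higher with wild-type Set8b than with vector, by unequal amounts. The probe set with the largest difference read 130.0 with vector and 304 with wild-type Set8b, a log2 difference of 1.23, beside 243 with stable Set8b. The brightest probe set, and the one past the filter, read 428 and 532, a difference of 0.31, beside 252 with stable Set8b. The others differed by 0.48 and 0.18. The wild-type array was the highest of the 3 in each of these probe sets. Which of them lie inside the transduced coding sequence was not analysed here, so these values are no measure of the transgene.

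Few bright genes separated wild-type Set8b from vector. Of 7327 genes, 11 were at least 2-fold higher, which is 0.15%, and 8 were at least 2-fold lower, which is 0.109%. The median size of a difference was 0.16 log2, and 96.1% of genes lay within 1.5-fold. The central 90% of differences ran from -0.41 to 0.44. At 1.5-fold, 172 genes were higher (2.35%) and 115 lower (1.57%). For stable Set8b over the same vector array, 252 genes (3.44%) were past 2-fold on the higher side and 273 (3.73%) on the lower side. Together that is 7.17% of genes, against 0.259% with wild-type Set8b. The median size there was 0.30 log2, and 77.6% of genes lay within 1.5-fold. For stable over wild-type Set8b, 451 genes passed 2-fold, 6.16%. These 3 comparisons share arrays, so they are not independent of one another, and with 1 array each the gap between them has no test.

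**Figure D1:**
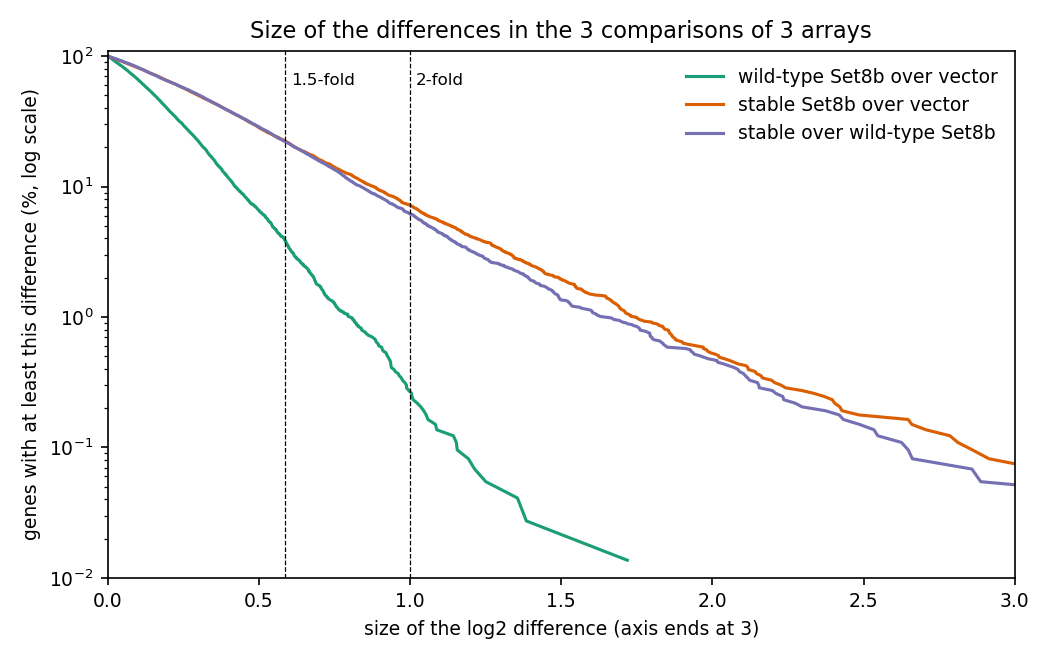
Share of the 7327 genes (vertical axis, percent, log scale) whose log2 difference is at least the size on the horizontal axis, with 1 line for each comparison of 2 arrays. The line for wild-type Set8b over vector falls to 3.92% at 1.5-fold and 0.259% at 2-fold, while both lines that use the stable Set8b array are at 22.4% and 22.2%, then 7.17% and 6.16%.

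The narrow spread held among bright probe sets. When all 41091 probe sets with 1 symbol were ranked by brightness and divided into 10 equal groups, the SD of the difference between wild-type Set8b and vector was 0.23 log2 in the brightest group and 1.97 in the dimmest. Past 2-fold were 0.219% of the brightest group, 9 probe sets, and 56.2% of the dimmest. For stable Set8b over vector the same shares were 6.06% and 53.6%. Among dim probe sets both comparisons thus had similar shares past 2-fold, and they parted as signal rose.

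**Figure D2:**
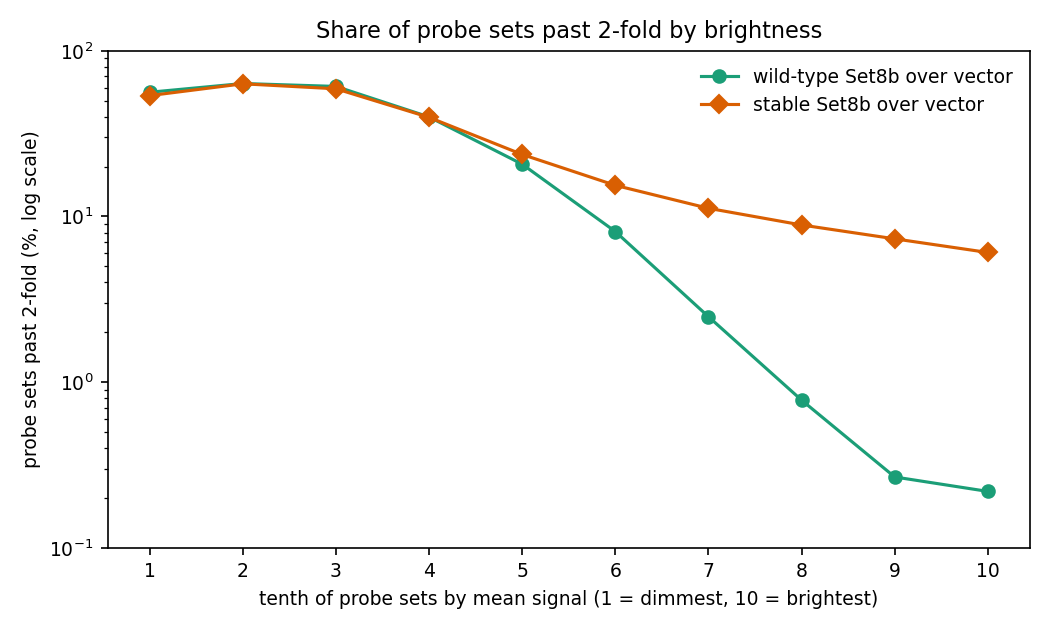
Share of probe sets past 2-fold (vertical axis, percent, log scale) in each of 10 equal groups of probe sets by mean signal (horizontal axis, 1 the dimmest), for wild-type Set8b over vector and stable Set8b over vector. The lines lie together up to the fourth group, at 39.8% and 39.6%, and end at 0.219% and 6.06%.

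The 11 genes at least 2-fold higher with wild-type Set8b included 3 genes known for stress. GDF15, a stress-induced cytokine, read 72.6 with vector, 189.6 with wild-type Set8b and 2122 for the stable form, 2.61-fold higher with wild-type Set8b. It was read by a probe set that ends in _x_at, which can also read related transcripts, and its other 2 probe sets were below a signal of 6 on both arrays. DDIT4, an inhibitor of the growth kinase mTORC1, read 870 with vector and 1934 with wild-type Set8b, 2.22-fold higher, and 1028 on the stable array. CHAC1, which breaks down glutathione, read 371, 744 and 229 in the same order, 2.01-fold higher. DDIT4 and CHAC1 were highest on the wild-type array, while GDF15 was highest on the stable array.

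The other 8 were of mixed kinds. CXCL14, a chemokine, read 305 with vector and 779.6 with wild-type Set8b, 2.56-fold higher, against 124 with stable Set8b, so the 2 forms of the enzyme lay on opposite sides of the vector. A second CXCL14 probe set, just below the filter, was at 0.85 log2. MFGE8, a secreted protein that helps phagocytes clear dying cells, was 2.38-fold higher (155 against 368) and PXN, which encodes the focal adhesion protein paxillin, was 2.32-fold higher (234 against 544). Both were higher again with stable Set8b, at 579 and 1037. SUGCT, a mitochondrial coenzyme A transferase, read 92.5, 206 and 5183 with vector, wild-type and stable Set8b. The lens crystallin gene CRYGS was 2.21-fold higher, AAGAB, a trafficking factor, 2.08-fold, RHBDF2, a regulator of the sheddase ADAM17, 2.03-fold, and the noncoding RNA LINC00973 2.01-fold. Just short of 2-fold were AGRN, which encodes agrin of the basement membrane, at 1.99-fold and FBXO46 at 1.98-fold. They were followed by ETV5, a factor switched on by growth factor signalling, at 0.97 log2 (246 against 483), and ZNF703, a transcriptional repressor, at 0.96 (393 against 766). ARC, a synaptic gene that is also an immediate early gene, was at 0.95 (406 against 782). PDLIM4 was at 0.95 by one bright probe set and at 0.76 and -1.25 by others, so its direction was not settled.

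Of these 11 genes, 6 were also at least 2-fold higher with stable Set8b over vector, 4 were within 2-fold and 1, CXCL14, was at least 2-fold lower. Among all 7327 genes, the share that high with stable Set8b was 3.44%. Both comparisons use the same vector array, so a low reading on it raises both differences, and the overlap was not tested. Each of the 11 had 1 probe set past the filter, so none had a second bright one to compare. On one of the 2 arrays 6 of them were dimmer than the filter level, since the filter used the mean over 3 arrays. Adding a filter on the mean of the wild-type and vector arrays alone left 8 genes 2-fold higher and 5 lower. It was put on top of the main filter and could only remove genes, so these were bound to be among the 19. GDF15, SUGCT and MFGE8 were lost among the higher ones, with means of 117, 138 and 239 over these 2 arrays. They had passed the main filter through the stable array and are among the 6 above. Among the lower ones, described next, AOX1, RIMS2 and CHUK were lost, with means of 174, 245 and 276.

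The 8 lower genes included the inhibitors of DNA binding ID3 and ID4, which block helix-loop-helix factors and are targets of BMP signalling. ID3 read 2804 with vector, 1392 with wild-type Set8b and 1954 for the stable form, 2.01-fold lower with wild-type Set8b. ID4 read 510, 247 and 426, 2.06-fold lower. The remaining members of the family, named after the values were seen, also lay below vector, ID2 at -0.55 log2 (469 against 320) and ID1 at -0.28 (9445 against 7775). ID1 to ID4 were lowest on the wild-type array.

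TMEM147-AS1, a noncoding RNA, had the largest difference of all 7327 genes and the single one past 3-fold. It read 554 with vector, 168 with wild-type Set8b and 459 for the stable form, 3.29-fold lower with wild-type Set8b, while its other, dim probe set was at -0.20. AOX1, an aldehyde oxidase, was 2.29-fold lower (263 against 115), the synaptic gene RIMS2 2.12-fold, and CHUK, which encodes the kinase IKK-alpha of NF-kB signalling, 2.05-fold (396 against 193). SNX2, a sorting nexin of the retromer, was 2.08-fold lower by one probe set and at -0.42 log2 by another. TRIM27, a ubiquitin ligase, was 2.13-fold lower by one bright probe set and at 0.06 log2 by another, so its direction was not settled. Of the 8 lower genes, 7 were within 2-fold between stable Set8b and vector, and 1, AOX1, was at least 2-fold higher there, at 834. Over all genes 7.17% were past 2-fold either way in that comparison, which uses the same vector array. Just short of 2-fold were ARMCX1 at 1.98-fold and VGLL3, a partner of TEAD factors, at 1.96-fold. VGLL3 read 268 with vector and 137 with wild-type Set8b, and passed the filter through the stable array, at 864. DAZAP2 was 1.98-fold lower by one bright probe set and at 0.06 and 0.15 log2 by others, so its direction was not settled. With arrays centred on their medians in place of quantile normalization, the counts were 6 higher and 24 lower. That scaling moves the median of all genes to -0.14 log2, against 0.01 here.

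**Figure D3:**
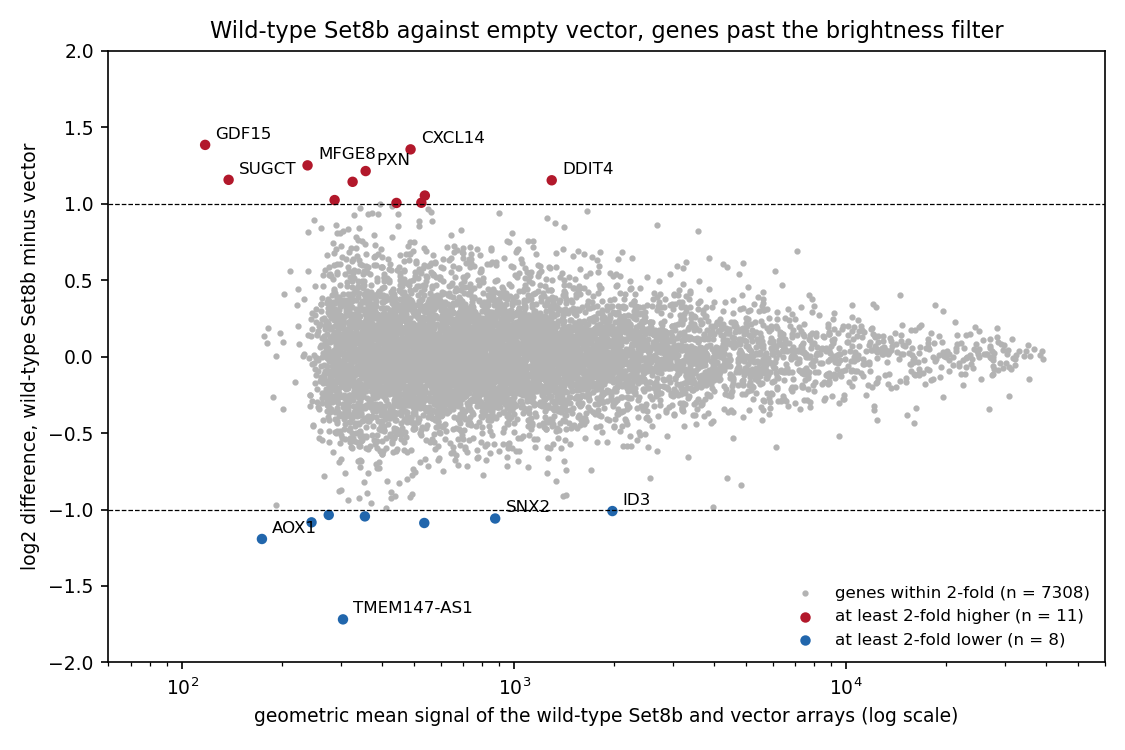
Log2 difference of wild-type Set8b minus vector (vertical axis) against the geometric mean signal of the 2 arrays (horizontal axis, log scale) for 7327 genes, with dashed lines at 2-fold. The 11 higher genes (red) and 8 lower genes (blue) lie mostly toward the dim end, and DDIT4 and ID3 are the ones with a mean signal above 1000.

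Stress responses were then described by lists of known genes, 12 in all. In most lists no member or 1 member passed 1.5-fold. Those with more were the amino acid response (3 of 34 higher), the p53 targets (4 of 25 higher), the immediate early genes (5 of 21 higher) and the hypoxia genes, with 1 higher and 1 lower of 18. The share over all genes was 2.35% for 1.5-fold higher and 51.1% for any value above 0. No list was tested.

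**Figure D4:**
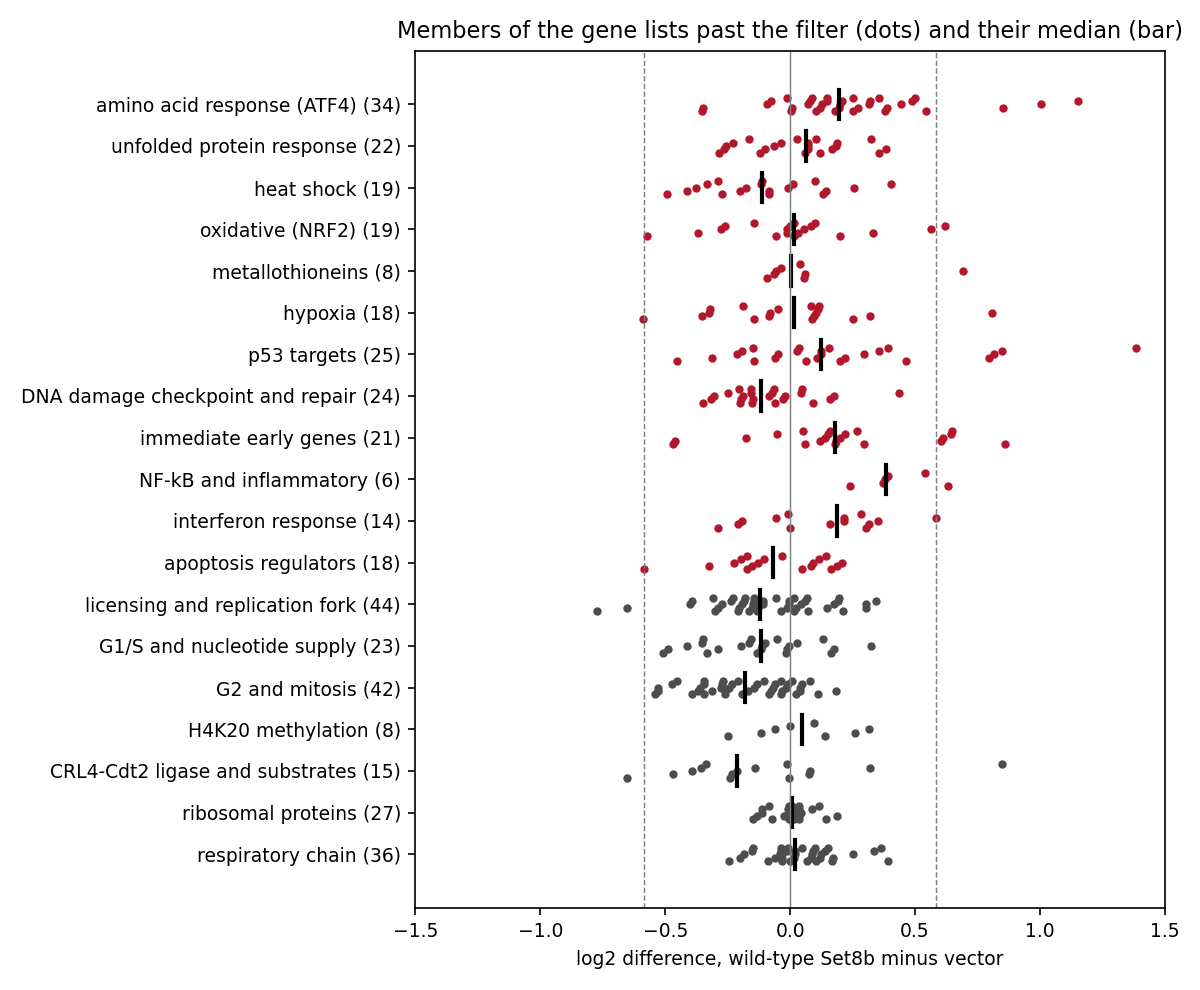
Log2 difference of wild-type Set8b minus vector (horizontal axis) for members past the filter of 19 lists (12 of stress, 3 of the cell cycle, 2 around Set8 and 2 of housekeeping genes), 1 dot per gene, with the median as a bar and dashed lines at 1.5-fold; stress lists are red and the number of genes is in brackets. The medians of these lists lie between -0.21 (CRL4-Cdt2 ligase and substrates) and 0.39 (NF-kB and inflammatory).

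The amino acid response is the programme in which the factor ATF4, made when translation is slowed by stress, turns on genes of amino acid uptake and synthesis. Of 42 listed genes 34 passed the filter, 29 lay above 0 and 5 below, with a median of 0.20 log2 against 0.01 over all genes. With stable Set8b over vector the same 34 genes had a median of -0.19 and 12 lay above 0, against 48.7% of all genes. At least 1.5-fold higher with wild-type Set8b were DDIT4, CHAC1 and DDIT3. DDIT3, which encodes the death-promoting factor CHOP, read 384 with vector, 693 with wild-type Set8b and 515 for the stable form, 0.85 log2 above vector for wild-type Set8b. The glutamine carrier SLC1A5 was at 0.54, the cystathionine synthase CBS at 0.50 and TRIB3, a pseudokinase that restrains the response, at 0.49. TRIB3 read 681, 954 and 674 in the order vector, wild-type and stable, so the vector and stable arrays were alike and the wild-type array was higher. ATF4 itself was at -0.09, the asparagine synthetase ASNS at 0.13 and ATF3 at 0.21. The lowest members were XPOT, which exports tRNA from the nucleus, and PSPH of serine synthesis, both at -0.35. SESN2, a stress-induced inhibitor of mTORC1, had probe sets at 0.39 and 0.81, and both passed the filter through the stable array. Many members therefore lay slightly above vector, while 2 of 34, DDIT4 and CHAC1, passed 2-fold. With arrays centred on their medians 20 of the 34 lay above 0, against 2029 of 7328 genes. The list median was then 0.05, which is 0.19 above the median of all genes.

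The promoters of the 4 amino acid response genes with the largest differences are shown because these members lay above vector together. They are RefSeq windows of GRCh38.p14, from 250 bases before to 50 after a start site, each 300 bases on the strand of the gene. Both strands were searched for TGATGNAA, the core of the C/EBP-ATF response element that ATF4 can bind, and capitals mark a match. Of 35116 promoters of this length in the table, 1270 hold it, which is 3.62%. CHAC1 holds 1 match on the opposite strand, which begins 209 bases before the start site. SLC1A5 has 3 windows for 3 start sites, and the one shown holds 1 match, beginning 97 bases before its start site. It is shown for that match, and the other 2 SLC1A5 windows hold 0. No match lay in the DDIT4 window or in either of 2 DDIT3 windows, of which 1 is shown. A match describes letters and not a bound site.
DDIT4 promoter, chr10:72273674-72273973, plus strand: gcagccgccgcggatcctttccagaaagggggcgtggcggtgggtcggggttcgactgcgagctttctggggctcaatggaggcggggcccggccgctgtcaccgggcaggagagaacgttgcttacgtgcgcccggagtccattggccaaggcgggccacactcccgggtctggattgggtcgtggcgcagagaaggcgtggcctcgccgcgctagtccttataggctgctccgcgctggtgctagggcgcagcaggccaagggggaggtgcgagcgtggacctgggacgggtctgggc
CHAC1 promoter, chr15:40953221-40953520, plus strand: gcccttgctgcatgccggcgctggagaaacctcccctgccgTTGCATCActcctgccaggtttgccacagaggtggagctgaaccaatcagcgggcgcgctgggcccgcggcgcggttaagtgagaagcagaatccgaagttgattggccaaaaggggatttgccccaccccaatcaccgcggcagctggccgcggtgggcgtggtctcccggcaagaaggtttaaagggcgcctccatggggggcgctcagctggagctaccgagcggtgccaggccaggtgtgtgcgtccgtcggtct
DDIT3 promoter, chr12:57520465-57520764, minus strand: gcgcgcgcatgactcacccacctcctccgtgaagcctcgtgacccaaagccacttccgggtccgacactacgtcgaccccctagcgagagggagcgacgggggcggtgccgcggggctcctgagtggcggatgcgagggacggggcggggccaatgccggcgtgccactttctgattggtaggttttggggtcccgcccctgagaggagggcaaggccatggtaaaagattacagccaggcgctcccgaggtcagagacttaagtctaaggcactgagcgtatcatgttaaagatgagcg
SLC1A5 promoter, chr19:46784765-46785064, minus strand: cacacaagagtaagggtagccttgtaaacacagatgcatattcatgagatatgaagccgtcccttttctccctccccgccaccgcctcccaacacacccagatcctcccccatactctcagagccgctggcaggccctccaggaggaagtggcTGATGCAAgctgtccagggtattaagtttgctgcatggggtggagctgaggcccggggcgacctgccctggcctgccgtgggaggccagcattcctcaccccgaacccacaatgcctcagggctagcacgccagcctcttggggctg

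Immediate early genes are switched on within minutes by growth factors, fresh serum or stress, through serum response factor and its partners. Of 38 listed genes 21 passed the filter, 17 lay above 0 and 4 below, with a median of 0.18 log2. At least 1.5-fold higher were EGR1, IER2, PHLDA1, CCN1 and JUN. EGR1, a zinc finger factor, read 1994 with vector, 3623 with wild-type Set8b and 2136 for the stable form, a difference of 0.86, and its 3 probe sets lay at 0.50, 0.86 and 1.10. IER2 read 3093, 4840 and 2377, a difference of 0.65. The AP-1 subunit JUN was at 0.61 by an _x_at probe set and at 0.07 by the next brightest, so its size was not settled. The matricellular gene CCN1 was at 0.61 and 1.04 by 2 probe sets and PHLDA1, a pleckstrin homology protein, at 0.65. Lower were RHOB, a small GTPase, at -0.46 and the repressor KLF10 at -0.47. With stable Set8b over vector the median of the list was 0.27. With arrays centred on their medians 12 of the 21 lay above 0, against 2029 of 7328 genes.

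FOS, the partner of JUN in AP-1, has a single probe set, which missed the filter because the filter mean took in the stable array. It read 230 with vector, 528 with wild-type Set8b and 122 for the stable form, 2.29-fold higher with wild-type Set8b. On the vector and wild-type arrays FOS was brighter than CRYGS (219 and 485) and RHBDF2 (202 and 410), which passed the filter. EGR1, IER2 and FOS were all highest on the wild-type array, and on the stable array IER2 and FOS lay below vector while EGR1 was close to it. These genes answer to handling and medium changes as well as to signals, and the sources used here do not give the time since the last medium change.

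The EGR1 promoter is shown, a choice made after its values were seen, since its 3 probe sets lay on the same side. Capitals mark CArG boxes, the sites of serum response factor, searched on both strands. The window holds 2 of them, beginning 105 and 83 bases before the start site. Of 35116 promoters 454 hold at least 1 CArG box, which is 1.29%. The FOS window of the same length holds none.
EGR1 promoter, chr5:138465229-138465528, plus strand: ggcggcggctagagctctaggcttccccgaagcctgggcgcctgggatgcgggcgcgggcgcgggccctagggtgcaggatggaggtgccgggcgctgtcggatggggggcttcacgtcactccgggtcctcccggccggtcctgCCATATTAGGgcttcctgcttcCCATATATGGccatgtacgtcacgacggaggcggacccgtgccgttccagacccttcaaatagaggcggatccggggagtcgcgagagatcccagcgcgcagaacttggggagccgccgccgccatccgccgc

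**Figure D5:**
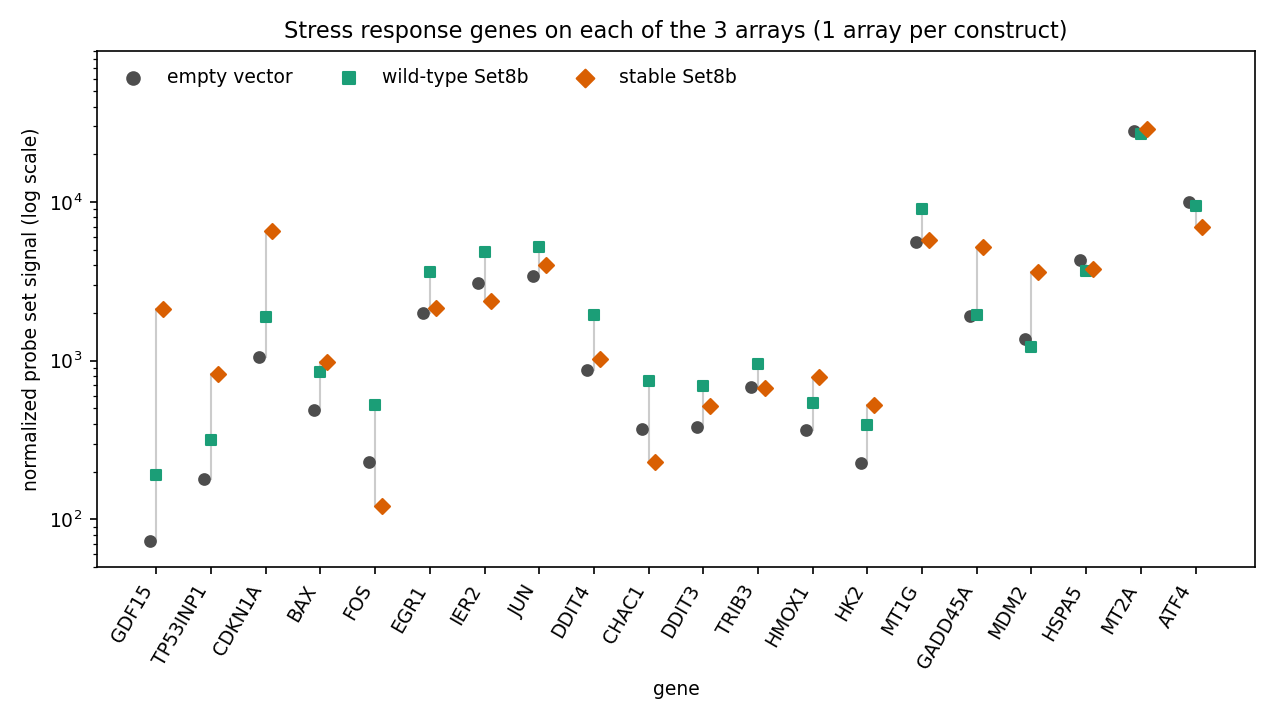
Normalized signal (vertical axis, log scale) of 20 stress response genes on the vector, wild-type Set8b and stable Set8b arrays, 1 array each. EGR1, IER2, FOS, DDIT4, CHAC1, DDIT3, TRIB3, JUN and MT1G are highest with wild-type Set8b, whereas GDF15, TP53INP1, CDKN1A, GADD45A and MDM2 are highest with stable Set8b.

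Targets of p53, the tumour suppressor that answers DNA damage, had a median of 0.12 log2 with wild-type Set8b over vector. Of 33 listed genes 25 passed the filter, 17 above 0 and 8 below. At least 1.5-fold higher were GDF15, CDKN1A, TP53INP1 and BAX. CDKN1A, which encodes p21, read 1052 with vector, 1891 with wild-type Set8b and 6590 for the stable form, a difference of 0.85 for wild-type Set8b and 2.65 for stable. TP53INP1, which promotes autophagy and death, read 179.9, 317 and 829.6. BAX, which opens the outer membrane of mitochondria, read 491, 853 and 982, and its 2 probe sets lay at 0.80 and 0.95. On each of these 4 the stable array was the highest. GDF15 and TP53INP1 passed the filter through that array alone, since both read below the filter level of 279 on average over vector and wild-type Set8b.

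The other p53 targets stayed nearer to vector. MDM2, the ligase that destroys p53, had probe sets at -0.15 and 0.68, against 1.41 and 2.30 with stable Set8b. GADD45A read 1902 with vector, 1937 with wild-type Set8b and 5220 for the stable form. RRM2B, a ribonucleotide reductase subunit, read 284, 310 and 1793, and ZMAT3 read 512, 596 and 2586. PLK2 was at -0.31 and the translesion polymerase POLH at -0.45. For stable Set8b over vector the 25 genes had a median of 1.18, which the filter favours, since it takes in the stable array and FAS, GDF15 and TP53INP1 passed through it. Of the 5 p53 targets below the filter, SESN1, PLK3 and ASCC3 were at 1.76, 1.58 and 0.42 with stable Set8b. EDA2R was at -1.26 and SPATA18 at -0.11, both at dim signals. With arrays centred on their medians the median for wild-type Set8b was -0.02 and 11 of the 25 lay above 0. In that scaling 2029 of 7328 genes lay above 0. The sign of the list median thus depends on the scaling, and no direction is given for the list as a whole. Its median lay 0.12 above the median of all genes, with quantile normalization and with centring alike.

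Checkpoint and repair genes lay slightly below vector. Of 24 past the filter 6 were above 0 and 18 below, with a median of -0.12, and 0 passed 1.5-fold. The checkpoint kinase CHEK2 was at -0.35 and WEE1, which holds back mitosis, at -0.30. FANCI of the Fanconi pathway had bright probe sets at -0.32 and 0.42, so its direction was not settled. GADD45B, a stress sensor, was the highest at 0.43. With stable Set8b their median was -0.58, with 7 of 24 at least 2-fold lower, against 3.73% of all genes.

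The unfolded protein, heat shock, oxidative stress and metallothionein lists had medians between -0.11 and 0.07. In the unfolded protein response, the answer of the endoplasmic reticulum to misfolded proteins, 0 of 22 genes passed 1.5-fold and the chaperone HSPA5 was at -0.23. Of the 3 sensor genes ATF6 and ERN1 were the highest members, at 0.38 and 0.36, while EIF2AK3, which encodes PERK, was at -0.26. The disulfide isomerase PDIA6 was lowest at -0.29. Among 19 heat shock genes 0 passed 1.5-fold and 13 lay below 0, with CHORDC1 at -0.49, DNAJA1 at -0.41 by one bright probe set and -0.04 by another, and the collagen chaperone SERPINH1 at 0.41. HSPA1A was not analysed here. Of 19 oxidative stress genes that NRF2 controls, TKT of the pentose phosphate path was at 0.62, by another probe set at 0.32, the heme oxygenase HMOX1 at 0.57 (363 against 538) and GCLM of glutathione synthesis at -0.57. NFE2L2, which encodes NRF2 itself, was at -0.37. Metallothioneins, which bind zinc and copper, were among the brightest genes, with MT2A at 28216 with vector and 26988 with wild-type Set8b. MT1G was the exception at 0.69 (5584 against 9012), by an _x_at probe set that can read related metallothioneins. With values as deposited MT2A was at 0.18, since quantile normalization leaves the brightest probe sets little room to differ.

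Among 18 hypoxia genes the hexokinase HK2 was at 0.81 (225 against 395), with 2 dimmer probe sets at -0.48 and -0.56, and the mitophagy receptor BNIP3 at -0.59 by one probe set and -0.17 by another. The glycolysis regulator PFKFB3 was at -0.35. Of 23 listed NF-kB and inflammatory genes 6 passed the filter, and all 6 lay above 0 with a median of 0.39. IL11 was among the 6 through the stable array, since it read below the filter level of 279 on average over vector and wild-type Set8b. Among those too dim for the filter, CXCL8 was at 1.29 and IL1B and CXCL3 at -1.63 and -1.37. The cytokine LIF was at 0.63 (510 against 789.9), the chemokine CCL2 at 0.54, the inhibitor NFKBIA at 0.39 and IL11 at 0.38. These 6 were also above 0 with arrays centred on their medians, where 2029 of 7328 genes were. With stable Set8b CCL2 read 6893 against 1675 with vector, and IL11 read 1698 against 242. Of 14 interferon response genes 8 lay above 0, with the immunoproteasome subunit PSMB9 at 0.58 and IFI16 at -0.29. Among 18 apoptosis regulators CASP8 was lowest at -0.58 and BOK highest at 0.21, and 0 passed 1.5-fold. TXNIP, which answers glucose, was too dim for the filter, at 105 with vector and 77.7 with wild-type Set8b by its brightest probe set.

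Genes of the cell cycle lay a little below vector with wild-type Set8b, by far less than with stable Set8b. Of 44 genes of licensing and the replication fork 29 lay below 0, with a median of -0.12 against -0.90 for stable Set8b. RFC2, a clamp loader subunit, read 1053 with vector, 617 with wild-type Set8b and 370 for the stable form, and its 2 probe sets were at -0.77 and -0.66. CDT1, which licenses origins, read 1195, 759.6 and 453, a difference of -0.65. These 2 were the members past 1.5-fold, and on both the wild-type array lay between vector and stable Set8b. Of 23 G1/S genes 18 lay below 0, with a median of -0.12 against -0.66 for stable Set8b, and with DCK at -0.51 and CDKN1B, the inhibitor p27, at -0.49. Of 42 genes of G2 and mitosis 34 lay below 0, with a median of -0.18 against -0.93 for stable Set8b. The spindle motors KIF11 and KIF23 were at -0.54 and -0.53 and the kinetochore gene NDC80 at -0.53, and 0 of the 42 passed 1.5-fold. Highest in these 3 lists were the polymerase subunit POLD2 at 0.35, cyclin CCNE1 at 0.32 and the phosphatase CDC25B at 0.18. These medians stayed below 0 under each scaling tried, but centring shifts all genes down together and could only lower them further. Relative to the median of all genes the 3 lists lay at -0.13, -0.12 and -0.19. With centring these values were -0.14, -0.14 and -0.20.

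The ligase that acts on Set8 and its substrates had the lowest median of the lists, -0.21 over 15 genes, of which 11 lay below 0. With arrays centred on their medians, which shifts all genes down together, it was -0.38. Relative to the median of all genes it was -0.22, and -0.24 with centring. The substrate receptor DTL, also called Cdt2, was at -0.21 (1786 against 1543), and DDB1, which joins it to the scaffold, at 0.32. The scaffold CUL4B was at -0.34 and CUL4A at -0.47, with 2 more CUL4A probe sets at -0.16 and -0.12. The list shares CDT1, PCNA, E2F1 and CDKN1A with others. Of 8 genes of H4K20 methylation and related histone methylation, KMT5B, which adds further methyl groups to the lysine, had bright probe sets at 0.26 and -0.30, so its direction was not settled. EZH2, which methylates histone H3, was at -0.25.

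Of 53 listed core histone genes 6 passed the filter, with a median of 0.44, against 0.12 over 33 genes with no filter. Among the 6, H2BC9 and H2BC21 passed through the stable array, at 829 and 467 there. Both read below the filter level of 279 with vector and with wild-type Set8b. H2BC5 read 806 with vector, 1314 with wild-type Set8b and 2890 for the stable form, but its other probe set was at 0.09. H2BC6 was at 0.60, H4C11 at 0.54, H2BC12 at -0.12 and H2BC9 at -0.26. Histone probe sets often read several copies, and single genes are uncertain. Replacement and linker histones, 8 genes, lay between -0.13 and 0.30, with H1-10 highest (4574 against 5623, and 1264 with stable Set8b).

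Secreted factors tied to senescence had 12 of 13 members above 0 and a median of 0.36 with wild-type Set8b. With arrays centred on their medians 8 of the 13 lay above 0, against 2029 of 7328 genes, and the list median was 0.19. GDF15 led them, and IGFBP7, which binds insulin-like growth factors, was at 0.58 (324 against 486, and 2115 with stable Set8b). HBEGF, a ligand of the EGF receptor, was at 0.48 and TIMP1, an inhibitor of metalloproteases, at 0.40. LMNB1, a nuclear lamin rather than a secreted protein, read 886 with vector, 1458 with wild-type Set8b and 615 for the stable form, so the 2 forms lay on opposite sides of vector. This list shares GDF15 with the p53 targets, VEGFA with the hypoxia genes and CCL2 with the inflammatory genes. Housekeeping genes stayed close to vector, with a median of 0.01 over 27 ribosomal protein genes and 0.02 over 36 respiratory chain genes, and 0 of either past 1.5-fold. With values as deposited the ribosomal protein median was 0.25. Cholesterol and fatty acid synthesis, 22 genes, had a median of -0.02, with the sterol enzyme NSDHL lowest at -0.62 and the fatty acid synthase FASN highest at 0.42.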

How the data were processed

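RNA of U2OS cells was hybridised to Affymetrix arrays, 1 array for each of 3 constructs, per the labels' protocols. The deposited values are linear intensity values per probe set. The software behind them is not given in any of the sources at hand, and by its values each array had been scaled to a trimmed mean of 250.0. Python 3.11.15 with numpy 2.4.6, pandas 2.3.3 and matplotlib 3.10.9 was used. Control probe sets were dropped, the 3 arrays quantile normalized, and log2 taken without a floor. In the platform annotation 41091 of 54613 probe sets carried 1 symbol, 1801 carried several and 11721 carried none. Through Entrez identifiers 41037 were found in RefSeq (GRCh38.p14), which updated 0 names. Quantile normalization removes any overall shift and draws the brightest genes together.

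No test was possible with 1 array per group, whose number limits the precision, so genes were counted past 2-fold and 1.5-fold. The 29 lists held 773 genes, of which 486 passed the filter, 202 fell below it and 85 had no probe set used here with that symbol alone. The comparison, its lists and its filter were chosen with earlier results of these data known.

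Genes were named by a rule: KMT5A, the 12 highest and 12 lowest genes with agreeing probe sets that do not end in _x_at, up to 4 members of each stress list and 2 of others, and a set of well-known stress genes. A few more (the ID family, genes of the called set outside that rule, and other list members) were named after their values were seen. Steps were tested on simulated data. Alternatives were 3 other scalings, 4 other filters, the mean over probe sets, leaving out _x_at and _s_at probe sets, and 1.5-fold or 3-fold calls. A filter on the mean of the wild-type and vector arrays, put on top of the main filter, was added after seeing the data.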

Additional observations from a re-analysis of the deposited data

How the results depend on the processing

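With values as deposited 11 genes were 2-fold higher and 9 lower, and the counts were also 11 and 9 with the wild-type and vector arrays normalized alone; in both, the 11 and 8 genes of the main counts were among them. Arrays centred on their medians gave 6 and 24. With no filter on dim probe sets there were 2069 and 1955 of 19775 genes, with the brightest 50% of probe sets 120 and 77, and with the brightest 10% 1 and 1 (DDIT4 and ID3). The filter on the 2 compared arrays, put on top of the main filter so that it could only remove genes, gave 8 and 5. Without _x_at and _s_at probe sets there were 7 and 7. At 1.5-fold there were 172 and 115, and at 3-fold 0 and 1. The median size of a difference ran from 0.13 to 0.32 log2 over these settings. Among named genes 15 of 836 values and among list medians 6 of 234 moved by more than the SD between probe sets, and no called gene changed sign. Centring moved the median of all genes from 0.01 to -0.14 log2. A shift of that size is below the SD of 0.23, so by itself it could not count as a move. Nor could it turn the sign of a gene past 2-fold. Centring turned the sign of 8 of 26 list medians, those of p53 targets, unfolded protein response, oxidative stress, hypoxia, respiratory chain, H4K20 methylation, and mesenchymal and epithelial markers. No paired analysis was possible because each group has 1 array. Signal over background limits the dim genes, most of all those near the filter level.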

Other observations

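Below the filter lay 4456 genes that were in the brightest 50% of probe sets but not in the brightest 25%. Of these 3.99% passed 2-fold between wild-type Set8b and vector, 109 higher and 69 lower. Asking for a signal of 100 or more on both arrays, a level chosen after the values were seen, left 2627 genes with 12 higher and 3 lower, 0.571%. Beside FOS, the higher ones included MIAT, a noncoding RNA (172 with vector, 393 with wild-type Set8b, 143 with stable Set8b), and LSM14B, an RNA-binding protein (134, 320 and 177). KRT75, a hair follicle keratin (137, 333 and 462), and RGS16, a regulator of G protein signalling (125, 264 and 399.8), were higher again with stable Set8b. The 3 lower ones were GPER1, an oestrogen-binding receptor (329, 149 and 131), KATNBL1, a regulator of the microtubule-severing enzyme katanin (300, 132 and 191), and TADA2B, a subunit of the SAGA complex (323, 154 and 305).

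Among 92 stress list genes below the filter, 10 were past 2-fold on the higher side with wild-type Set8b and 4 on the lower side. FOS was the single one with a signal of 100 or more on both arrays. The others, such as CXCL8 (19.7 against 48.1), ICAM1 (7.59 against 34.7) and MT1M (1.14 against 33.6), had signals where 2-fold differences are common in either comparison with vector.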
